A study of Mus musculus with 16 samples.

Results

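The regions described here carried an H3K4me3 peak in B6-TgWT testis and in B6 testis, with no overlapping peak in the B6-TgYF list. They were chosen from measured values: peaks of the 3 lists that shared at least 1 bp were merged over chromosomes 1 to 19, and the lists contributing to each region decided its class. Of 59204 merged regions, 1303 (2.2%) met this rule. Which lists hold a peak is therefore not a finding about these regions, and strength, which decides whether a site is listed, is given as a description only.

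H3K4me3, trimethylation of lysine 4 of histone H3, marks active promoters in every tissue. In germ cells entering meiosis, PRDM9 binds DNA through its zinc fingers and places the same mark at sites that become meiotic double-strand break hotspots. A whole-testis H3K4me3 list therefore mixes promoters, PRDM9-dependent sites and other marked elements of germ and somatic cells.

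The study tested whether the methyltransferase activity of PRDM9 is needed for meiotic breaks. B6-TgWT mice (C57BL/6J-Tg(RP23-159N6*)43Bdm) and B6-TgYF mice (C57BL/6JRj-Tg(RP23-159N6*)23Bdm) carried a transgene, and B6 mice (C57BL/6JOlaHsd) carried none. By general knowledge of this work, the B6-TgWT transgene encodes a catalytically active PRDM9 with zinc fingers of another mouse subspecies, and the B6-TgYF transgene encodes the same protein with a substitution in its methyltransferase domain. The strain labels of these 3 lines name no Prdm9 deletion, whereas other lines of the series carry one, so these mice are taken here to keep their own Prdm9. Whole testes were taken at 13 days post-partum, per the labels, and the name of the B6 list carries a 12 instead. Each line had 2 H3K4me3 libraries and 1 input, and 7 DMC1 libraries were not analysed here. Each transgenic line is 1 insertion line on its own C57BL/6 substrain, so line, substrain and transgene cannot be told apart.

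The authors deposited 1 peak list per line, with 46631 peaks in B6-TgWT, 41558 in B6-TgYF and 50013 in B6 on chromosomes 1 to 19. With no value per library, replicate spread could not be computed and the lines could not be tested against each other. The 95% Wilson intervals below cover counting error over regions only, and regions are not replicates. Read depth behind the lists is unknown. A region missing from a list had no listed peak there, and H3K4me3 below the listing cutoff would look the same.

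B6-TgWT and B6 peaks met in 36280 regions, and the 1303 without a B6-TgYF peak were 3.59% of these (interval 3.40 to 3.79). This share is the background for every count by strength and chromosome below. The mirror set, regions with B6-TgYF and B6 peaks and no B6-TgWT peak, numbered 4959, or 12.4% of 39936. How much larger it was depended on where the lists were cut. It was 3.81 times as large with the lists in full. With lists of equal length it was 11.1 times as large (539 regions missing from B6-TgYF and 5982 mirror regions). With the strongest 50% of each list the ratio was 1.21 (1385 and 1670), but for other regions, since all lists were cut. Those 1385 lacked a peak only in the stronger 50% of B6-TgYF and included 0 of the 1303. With the B6-TgYF list in full, 0 regions of the strongest 50% of B6-TgWT and B6 lacked a B6-TgYF peak. The B6-TgWT list is the longer of the transgenic lists and its lowest −log10 p was 12, against 11 in B6-TgYF and 11 in B6. With a common lowest −log10 p of 12 the mirror set was 3.13 times as large (1439 and 4511). It was 3.47 times as large with summits within 500 bp and 3.73 times with peaks extended by 500 bp.

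Most of the 1303 regions were weak in both lists that held them. The authors' fold enrichment, the ratio of signal at the peak to background, ran from 2.81 through a median of 4.0 to 14.3 in the B6-TgWT list, and from 2.42 through 4.56 to 10.2 in the B6 list. Ranked within each list, where 0 is the weakest peak and 100 the strongest, the medians lay at percentile 13.5 of B6-TgWT and 23.4 of B6. In the 34977 regions of all 3 lists the medians were percentile 58.8 of B6-TgWT and 65.0 of B6. The median −log10 p of the 1303 was 15.3 in B6-TgWT and 24.97 in B6, so the typical B6-TgWT peak stood close to the lowest value of its list. Of the 1303, 928 (71.2%, interval 68.7 to 73.6) fell in the 2 weakest deciles of the B6-TgWT list.

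No region lay in the stronger 50% of both lists, though the region with the highest mean percentile came close, at 49.0 in B6-TgWT and 60.9 in B6. In the stronger 50% of B6-TgWT peaks there were 54 of the 1303 and in the stronger 50% of B6 peaks 15, with 0 in both. The mirror set had 8 of 4959 in the stronger 50% of B6-TgYF and 109 in the stronger 50% of B6.

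The share missing from B6-TgYF declined with strength in the list that held the site, from decile 2 upward in the B6-TgWT list. By B6-TgWT strength it was 14.5% in the weakest decile, 15.8% in decile 2, 6.10% in decile 3 and 2.52% in decile 4. It was 1.29% in decile 5, 0.956% in decile 6, 0.478% in decile 7 and 0.116% in decile 8, with 0 of 4592 regions in decile 9 and 0 of 4651 in decile 10. By B6 strength the share was 34.0% in the weakest decile, 9.06% in decile 4 and 0.287% in decile 6. These values stand beside the 3.59% over all strengths, and since list membership depends on strength they say nothing more about the sites.

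The mirror set lay as low in its own list. Its median was percentile 13.4 of B6-TgYF, and 3548 of the 4959 (71.5%, interval 70.3 to 72.8) fell in the 2 weakest deciles. Its share missing from B6-TgWT was 51.4% in the weakest B6-TgYF decile, 9.41% in decile 4, 1.81% in decile 5, 0.172% in decile 6 and 0.0245% in decile 7. Between lists of different length such deciles show no change, and the difference in tails was not tested.

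**Figure D1:**
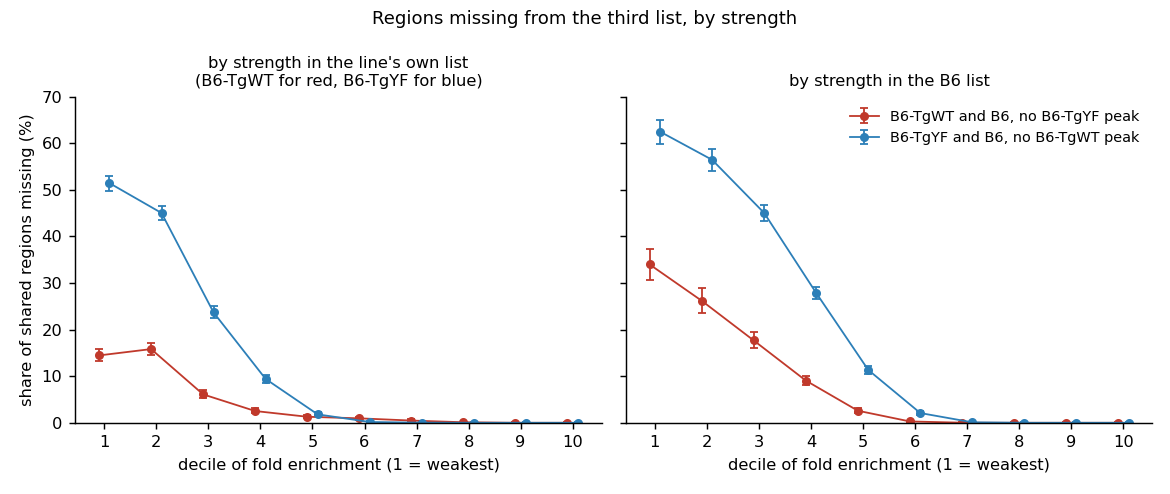
Share of regions missing from the third list (y, %) by decile of fold enrichment (x, 1 = weakest), with 95% Wilson intervals; red, B6-TgWT and B6 regions without a B6-TgYF peak; blue, B6-TgYF and B6 regions without a B6-TgWT peak. Red points lie below blue ones at weak deciles of either panel, and in the left panel the red share is still 0.956% in decile 6, where the blue is 0.172%.

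As a comparison from inside the rule, 1759 regions of all 3 lists had their B6-TgYF peak in the weakest decile of that list. Their median B6-TgWT fold was 4.19 (quartiles 3.78 and 4.84) and their median B6 fold 5.56 (quartiles 4.49 and 6.62). The 1303 missing regions had 4.0 (quartiles 3.76 and 4.41) and 4.56 (quartiles 3.77 and 5.43). In the B6-TgWT list the medians were close, at percentile 13.5 for the missing regions and 17.3 for the weakest listed B6-TgYF sites. In the B6 list the missing regions were weaker, with median percentiles of 23.4 against 34.2 and an upper quartile of fold below the other set's median.

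The names of the peaks gave a measure that the rule did not use directly, though it too depends on which B6-TgYF peaks were listed. Every peak carries a running number, and within each list the numbers were unique and rose with position along each chromosome. The B6-TgYF numbers reach 99491 for 42501 listed peaks, so many numbered peaks are not listed. A number skipped between 2 neighbouring listed B6-TgYF peaks is therefore taken to mark an unlisted peak somewhere in the stretch between them, though not its position or strength. This measure was chosen after the lists were seen.

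Almost every missing region lay in a stretch with such an unlisted B6-TgYF number. Of the 1302 regions with a listed B6-TgYF peak on either side, 1300 (99.8%, interval 99.4 to 99.96) had at least 1 skipped number, against 52.6% of all 41539 stretches. Length matters here, since 496 of the 1302 lay in stretches over 100 kb, where 93.2% of all stretches skipped a number. In stretches of at most 10 kb this held for 86 of 87 regions (98.9%, interval 93.8 to 99.8). Over all 13454 stretches of at most 10 kb between B6-TgYF peaks, only 23.0% (interval 22.3 to 23.7) skipped a number. The first share counts regions and the second counts stretches, and lengths were not matched. Up to 5 kb lay 29 of the 87 regions but 8393 of the 13454 stretches. In stretches of 5 to 10 kb a number was skipped for 58 of 58 regions (interval 93.8 to 100). That compares with 32.6% of all stretches of this length (interval 31.3 to 33.9), so the intervals remain far apart.

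Stretches that held exactly 1 region gave the same picture with no neighbour to share the number. In 74 stretches of at most 10 kb whose sole region was one of the 1303, 47 skipped exactly 1 number, 27 skipped more and 0 skipped none. In 191 such stretches around a region of the B6-TgWT list alone, 127 skipped none, and 33.5% (interval 27.2 to 40.5) skipped at least 1, against 100% (interval 95.1 to 100) for the missing regions. Regions of the B6 list alone resembled the missing regions, with 97.8% of 499 (interval 96.1 to 98.8). The same measure in the B6-TgWT list for the mirror set gave 99.7% of 288 (interval 98.1 to 99.9).

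Counting numbers against regions gave 1242 of 1244 stretches with at least as many skipped B6-TgYF numbers as missing regions. In 1236 of the 1244 the numbers also covered the regions of the B6 list alone in the same stretch. No stretch held more than 3 missing regions, and a median of 3 numbers was skipped around them. The counts therefore add little to the 1300 of 1302 above, and no such count was made for other classes.

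**Figure D2:**
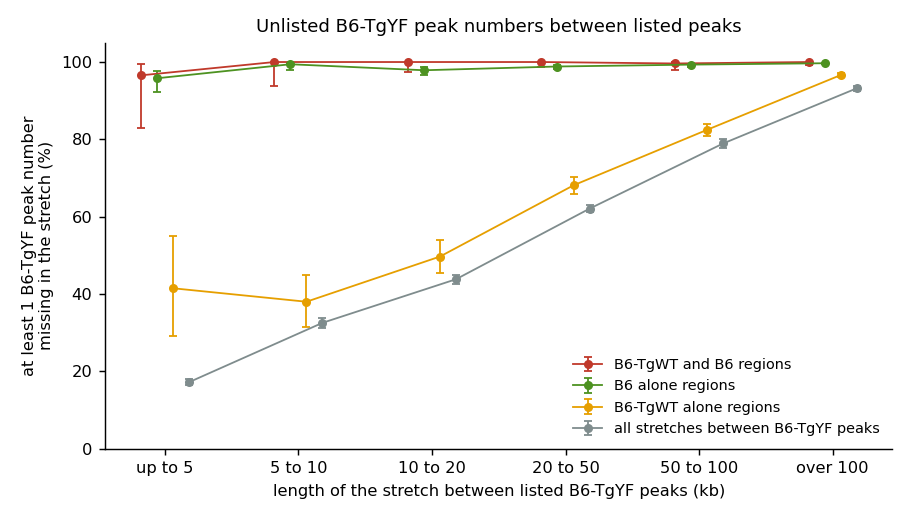
Share of regions, or of stretches, with at least 1 skipped B6-TgYF peak number (y, %) by length of the stretch between listed B6-TgYF peaks (x, kb), with 95% Wilson intervals. B6-TgWT and B6 regions (red) and B6 alone regions (green) stay above 95% at every length, while B6-TgWT alone regions (orange) and all stretches (grey) are at 41.5% and 17.2% up to 5 kb and reach 96.6% and 93.2% over 100 kb.

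Only 2 of the 1302 had no skipped number, and they are named because of that value. The first lay at chr11:46172810-46174441 (mm9) and had a fold of 7.29 in B6-TgWT and 4.84 in B6. Its B6-TgWT and B6 summits were 20 bp apart, the nearest listed B6-TgYF peak was 35.1 kb away and the B6-TgYF stretch spanned 83.0 kb. The second lay at chr7:129329803-129330545, with folds of 3.85 in B6-TgWT and 3.66 in B6, and ended 71 bp from a listed B6-TgYF peak. So the chromosome 11 region is a site at percentile 53.7 of the B6-TgWT list with no numbered B6-TgYF peak in its stretch.

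The peaks of the 1303 regions were narrow, with median widths of 693 bp in B6-TgWT and 779 bp in B6, against 1288 and 1404 bp in regions of all 3 lists. Narrow peaks were not particular to them. The mirror set had 660 bp in B6-TgYF and 744 bp in B6, and regions of B6 alone had 596 bp. Regions of all 3 lists in the weakest B6-TgWT decile had 770 bp in B6-TgWT and 925 bp in B6. In 1296 of the 1303 each list contributed a single peak, and in 782 of these the shorter peak lay wholly within the longer. Their summits, the positions of highest signal, lay a median of 55 bp apart (quartiles 19 and 135 bp).

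The 96 regions in B6-TgWT deciles 5 to 8 looked different from the other 1207. This division was made after the values were seen and is described without a test. In the 96, the median B6-TgWT peak was 1612.5 bp wide at a fold of 7.06, whereas the B6 peak was 673 bp wide at a fold of 4.23. The B6-TgWT peak was the wider in 89 of the 96 (92.7%, interval 85.7 to 96.4), in 313 of the other 1207 (25.9%, interval 23.5 to 28.5) and in 24.6% of 14352 regions of all 3 lists in the same deciles.

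Their summits were also apart. In 36 of the 96 (37.5%, interval 28.5 to 47.5) the B6-TgWT and B6 summits were more than 500 bp from each other, against 37 of the other 1207 (3.07%). Among regions of all 3 lists in B6-TgWT deciles 5 to 8 the share was 2.87% (interval 2.61 to 3.16). In the mirror set, 1 of 81 regions in B6-TgYF deciles 5 to 8 had summits that far apart (1.23%, interval 0.218 to 6.67). The B6 percentile of the 96 had a median of 19.02, below the 23.9 of the other 1207, although their B6-TgWT percentile was higher at 52.0 against 12.8. In these 96, a wide B6-TgWT peak of middle to upper rank typically overlapped a narrow, weak B6 peak. Selection sets part of this contrast, since the 96 were picked by B6-TgWT strength and the rule left few strong B6 peaks. Width also rose with strength in regions of all 3 lists, from a median of 770 bp in B6-TgWT decile 1 to 1656 bp in decile 8. The sets compared were not matched on B6 strength. The median B6 fold was 12.48 in the regions of all 3 lists in deciles 5 to 8 and 6.7 in the 81 mirror regions.

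**Figure D3:**
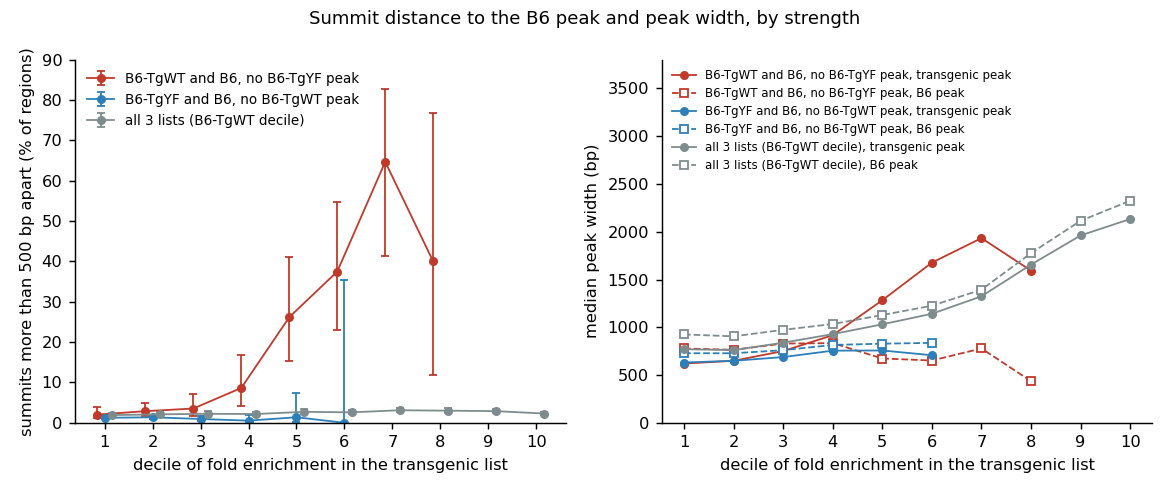
Left, share of regions whose transgenic and B6 summits are more than 500 bp apart (y, %), with 95% Wilson intervals; right, median width in bp of the transgenic peak (filled) and the B6 peak (open); x, decile of fold enrichment in the transgenic list, deciles with under 5 regions not drawn. From decile 4 the intervals of the regions missing from B6-TgYF (red) in the left panel lie above those of regions of all 3 lists (grey). The shares in decile 4 are 8.64% and 2.17%. The gap is wider further up, with 26.2% of summits apart in decile 5 and 64.7% in decile 7 against 2.72% and 3.11%. The classes are not matched on B6 strength.

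**Figure D4:**
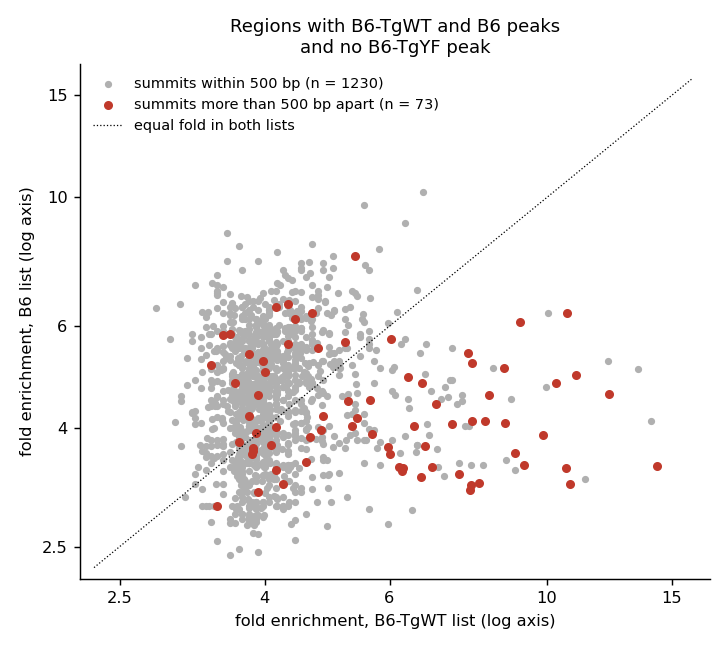
Fold enrichment of each of the 1303 regions in the B6-TgWT list (x) and the B6 list (y), both on log axes, with the 73 regions whose summits lie more than 500 bp apart in red and a dotted line of equal fold. Most points cluster near the medians of 4.0 and 4.56, and a tail extends to the right at B6 folds under about 6 in which red points are frequent.

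The 10 strongest regions, by the mean of both percentiles, differed in shape. In 7 of the 10 the B6-TgWT list ranked the site higher and had the wider peak. The first of these lay at chr10:61295212-61298015, with folds of 10.68 in B6-TgWT and 6.32 in B6, widths of 2694 and 1781 bp, and summits 733 bp apart. At chr11:78797028-78799225, with folds of 13.44 in B6-TgWT and 5.05 in B6, the summits were 2 bp apart. At chr3:129638388-129639245 the folds were 10.03 in B6-TgWT and 6.33 in B6, with summits 92 bp apart. At chr5:105227775-105228639 the folds were 12.18 in B6-TgWT and 5.22 in B6, with summits 56 bp apart. In the last 2 of these the B6-TgWT peaks were only 858 and 865 bp wide, so a B6-TgWT peak wider than its B6 peak was not always broad or displaced.

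The other regions of these 7 lay at chr19:37617757-37620669 (folds 9.16 in B6-TgWT and 6.10 in B6), chr16:30121620-30123358 (10.98 and 4.94) and chr5:149472560-149474519 (12.22 and 4.59). Their summits were 864, 545 and 828 bp apart. The chromosome 16 and second chromosome 5 regions ended 221 and 312 bp from a listed B6-TgYF peak, so these lie beside a B6-TgYF site.

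In the remaining 3 of the 10 the B6 list ranked the site higher, and the summits nearly coincided. The region ranked first, at chr18:32179750-32180237, had folds of 6.69 in B6-TgWT and 10.2 in B6, with summits 26 bp apart and the nearest B6-TgYF peak 46.4 kb away. At chr7:106222995-106224108 the folds were 6.31 in B6-TgWT and 9.04 in B6, and the summits 3 bp apart. At chr4:42903872-42905166 they were 5.53 in B6-TgWT and 9.71 in B6, and 15 bp. Between 1 and 7 B6-TgYF numbers were skipped around each of the 10 strongest regions.

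The widest of the 1303, at chr3:82881709-82884975, had a B6-TgWT peak of 3267 bp (fold 10.30) over a B6 peak of 482 bp (fold 4.78), with summits 2172 bp apart. The next 3 were at chr5:132727904-132730951, chr11:62891181-62894161 and chr12:8517447-8520378. Their B6-TgWT peaks were 2865, 2981 and 2932 bp wide over B6 peaks of 1108, 851 and 907 bp, and their summits 1034, 1017 and 1259 bp apart. The fifth was the chromosome 19 region named above.

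Some of the 1303 regions were close neighbours of a listed B6-TgYF peak. The nearest one lay a median of 12.3 kb away, within 1 kb for 177 (13.6%, interval 11.8 to 15.6) and within 500 bp for 134 (10.3%). For the mirror set and the B6-TgWT list the median was 11.4 kb and the share within 1 kb 11.4% (interval 10.5 to 12.3). The interval of the missing regions overlaps that of the mirror set.

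At the edge of the rule, the smallest gap to a B6-TgYF peak was 32 bp, for a region at chr4:153396303-153398148 with folds of 3.64 in B6-TgWT and 4.79 in B6. The next 4 gaps were 42, 44, 62 and 68 bp, on chromosomes 19, 8, 5 and 6, with B6-TgWT folds of 3.57 to 4.24 and B6 folds of 2.74 to 5.62. Just outside the rule, the regions of all 3 lists with the fewest bases of B6-TgYF peak under the other peaks shared 185, 189, 193, 196 and 198 bp, with B6-TgYF folds of 3.47 to 5.13. In these 5 the shared bases were the whole B6-TgYF peak, so they are sites with narrow B6-TgYF peaks rather than slight overlaps.

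Regions of all 3 lists lay within 1 kb of 147 of the 1303 (11.3%, interval 9.68 to 13.1), against 10.6% (interval 9.82 to 11.5) of the mirror set. Regions of the B6-TgWT list alone lay within 500 bp of 15 of the 1303 (1.15%, interval 0.699 to 1.89), against 2 of 4959 in the mirror set (0.0403%, interval 0.0111 to 0.147). Within 10 kb the shares were 8.90% (interval 7.47 to 10.6) and 7.60% (interval 6.90 to 8.37), so the intervals separate at 500 bp and overlap at 10 kb. By the rule, a B6-TgWT peak that touched a mirror region would change its class, and one that touched a missing region would be merged into it. The classes themselves thus limit these counts in both sets, by an amount that was not tested.

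The 1303 regions were spread over all 19 autosomes, from 37 on chromosome 17 to 112 on chromosome 2. As a share of regions with B6-TgWT and B6 peaks, they ranged from 2.22% on chromosome 17 (interval 1.62 to 3.05) to 4.86% on chromosome 14 (interval 3.84 to 6.14), around the 3.59% of all autosomes. Chromosomes 4, 9, 11 and 17 had intervals wholly below this share, and chromosomes 3 and 14 wholly above it. The extremes differed in the mirror set, where chromosome 10 had the highest share, 15.6%, and chromosome 2 the lowest, 9.34%. Chromosomes 4, 9, 11 and 17 were also below the 12.4% of the mirror set, at 10.8%, 10.9%, 10.2% and 10.9%. The mirror intervals of chromosomes 4, 9 and 11 lay wholly below that share, and the interval of 17 held it. Chromosomes 3 and 14 were above it, at 12.6% and 13.6%, with intervals that held it.

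**Figure D5:**
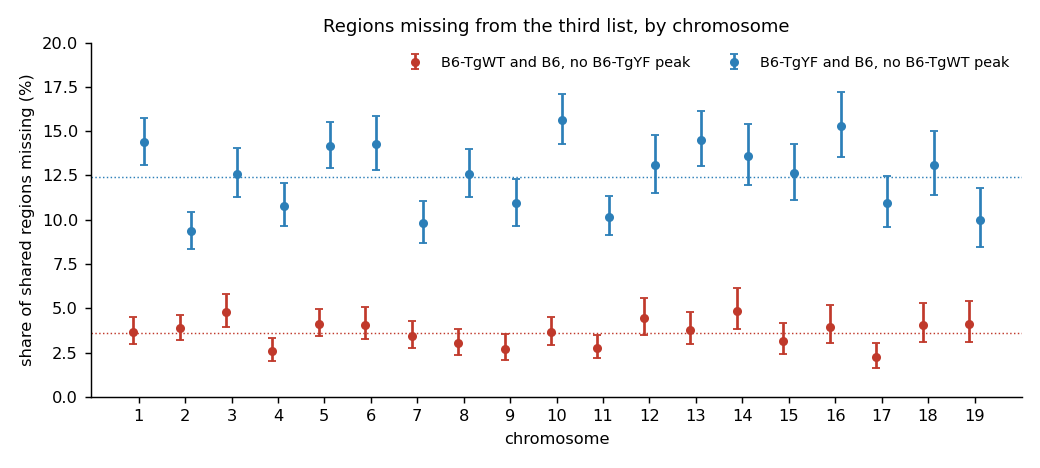
Share of regions missing from the third list (y, %) on each autosome (x), with 95% Wilson intervals; red, missing from B6-TgYF among B6-TgWT and B6 regions; blue, missing from B6-TgWT among B6-TgYF and B6 regions; dotted lines, the shares over all autosomes, 3.59% and 12.4%. Red shares stay between 2.22% and 4.86% on every chromosome.

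Most of the regions stood singly. Of the 1303, 1222 stood between regions of other classes, 39 runs held 2 in a row and 1 run held 3. That run lay at chr7:73637278-73652037, over 14.8 kb, and its B6-TgWT folds were 3.89, 3.68 and 8.90 with B6 folds of 3.65, 5.49 and 4.49. The longest pairs spanned 606 kb at chr2:7558620-8164709, and 169 kb at chr5:133722589-133891418. Among the 2606 neighbours of the 1303, 56.6% were regions of all 3 lists, which made up 59.1% of all regions, and 3.15% were others of the 1303, which made up 2.2%. Members of the set thus neighboured each other somewhat more often than their share of all regions, a difference that was not tested. Other classes were also above their share, with 16.1% against 14.4% for B6 alone and 9.21% against 8.38% for mirror regions. Regions of the B6-TgWT list alone were below theirs, with 14.0% against 15.1%.

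Within 100 kb of each missing region there was a median of 7 other regions (quartiles 4 and 10), as in the mirror set, against 8 (quartiles 5 and 12) around regions of all 3 lists. No other region lay that near for 3.68% of the 1303 (interval 2.79 to 4.85), 3.19% of the mirror set (interval 2.73 to 3.71) and 1.45% of regions of all 3 lists (interval 1.33 to 1.58). Missing regions were thus isolated more often than regions of all 3 lists, and their interval overlaps that of the mirror set.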

How the data were processed

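H3K4me3 ChIP-seq of whole testis was read from a single deposited list of peaks for each line, since the labels tie the same list to every library of the line. CASAVA, Bowtie2, BWA and MACS2 and the genome build mm9 appear in the submitters' processing notes without roles, order or versions. The treatment of replicates and the cutoff for listing a peak are not stated there. The deposited fold enrichment (a ratio), −log10 p and −log10 q and the summit position are the authors' values, and the deposited score equalled 10 times −log10 p, truncated, in every row. Coordinates are of mm9, counted from 1.

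Peaks sharing at least 1 bp were merged on chromosomes 1 to 19. A region of several peaks in 1 list took its strongest. Percentiles and deciles of fold enrichment are within a list. Shares have 95% Wilson intervals. The named regions followed a rule on strength, width, gap to a B6-TgYF peak, shared bases and runs, except those said to be chosen after their values. The regions and lists of interest were chosen with earlier results of these data known. The sorting recovered 100% of 20000 simulated, well separated sites. No mm9 genome or annotation was used, so no region was given a gene, promoter or sequence, and gene lists set out beforehand were not counted. Alternatives are in the closing section. The software was matplotlib 3.10.9, scipy 1.17.1, pandas 2.3.3 and numpy 2.4.6 under Python 3.11.15.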

Additional observations from a re-analysis of the deposited data

Results flagged for a closer look

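Chromosome X lay outside the rule and is listed for that reason. On it 26 of 829 regions with B6-TgWT and B6 peaks had no B6-TgYF peak, or 3.14% (interval 2.15 to 4.56), beside 3.59% on chromosomes 1 to 19.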

How the results depend on the processing

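The 11 results were recomputed in 65 ways, and in 46 of them a count stayed within a factor of 1.5 and any other value within its 95% interval. The 46 include the count of 1385 with the strongest 50% of each list. That count is close to 1303 but holds none of the same regions, because the B6-TgYF list was cut too. The count of regions missing from B6-TgYF, 1303, was 539 with lists of equal length and 0 with the strongest 50% of the B6-TgWT and B6 lists against B6-TgYF in full. Their share of 3.59% was then 1.68% and 0%, and it was 4.28% with summits within 500 bp, 3.38% with peaks extended by 500 bp, 7.07% with the strongest 50% of each list and 3.97% with a common lowest −log10 p of 12. The mirror set, 4959, was 1670 with the strongest 50% of each list. With summits within 500 bp the median percentiles became 15.3 in B6-TgWT and 27.4 in B6 and the widths 753.5 and 865 bp, and extension gave widths of 732 and 822 bp. By −log10 q the percentiles were 9.18 and 22.5. The share with a skipped B6-TgYF number was 98.9% in stretches of at most 10 kb and 100% in stretches of at most 20 kb with 1 such region alone, settings chosen after the data were seen. Settings on strength or list length drop peaks by their own construction. For the others the cause was not tested. No paired analysis was possible because the lists hold no values per library, and for the same reason no replicate was left out. Unknown depth limits every call of absence.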
